A study of Homo sapiens with 12 samples.

Results

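TOM-1 and RS4;11, a pair of human B-cell acute lymphoblastic leukaemia lines, were compared with each other in the arginine-depleted state that ADI-PEG20 produces. The members were the 3 TOM-1 and 3 RS4;11 libraries labelled as treated with ADI-PEG20 at 1000 ng/ml for 24 h, which are 6 of the 12 libraries of the series. All genes entered the comparison, and 15958 of the 60664 in the table had enough reads to be tested. Both lines carry the genotype label WT, and neither carries an added transgene or knockout. The other 6 libraries, 3 of each line in control culture for 24 h without the enzyme, were used only to ask whether a difference between the treated lines was already there without treatment.

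The agent, arginine deiminase coupled to polyethylene glycol, hydrolyses arginine in the medium to citrulline. Argininosuccinate synthase (ASS1) joins citrulline to aspartate and argininosuccinate lyase (ASL) releases arginine from the product, and cells without ASS1 depend on arginine from outside. When an amino acid runs short, uncharged tRNA activates the kinase GCN2, translation of the transcription factor ATF4 rises, and ATF4 induces amino acid transporters, biosynthetic enzymes and tRNA synthetases, while mTORC1 signalling, which drives ribosome and lipid synthesis, falls. TOM-1 carries the Philadelphia chromosome, which fuses BCR to the tyrosine kinase gene ABL1. RS4;11 carries a rearrangement of KMT2A, a histone methyltransferase gene whose fusions keep HOXA genes and MEIS1 active.

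Each leukaemia type is represented by 1 cell line, so the line, its leukaemia type and its history cannot be told apart. Since RNA was taken from whole cultures, fewer cells of a kind and less RNA per cell cannot be told apart either. Nothing in the labels says that the replicates were separate cultures, so p-values measure the spread between these libraries, which may be technical. The treated libraries held 18958144 to 25010433 counts of poly(A) RNA, and a count of 0 in a library allows up to 3 counts, or 0.119 to 0.160 CPM (counts relative to the TMM-scaled library size). These limits cover counting error only. Replicates correlated across genes at 0.9811 or more on the log2 CPM scale, and libraries of different lines at 0.778 to 0.788. The first principal component, 89.9% of the variance, separated the lines. RS4;11 replicate 3 was the treated library least like its replicates: mitochondrially encoded genes took 2.71% of its counts, against 1.45% to 1.90% in the other 5. In the control groups, TOM-1 replicate 3 stood apart from all other libraries and was left out of the values for control culture.

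Throughout, a log2 difference is the fitted TOM-1 value minus the RS4;11 value, so that a positive number is higher in TOM-1, and a gene is called where its adjusted p (edgeR quasi-likelihood test, Benjamini-Hochberg over the genes tested) was under 0.05. Under ADI-PEG20, 11149 of the 15958 genes were called, which is 69.9%. Of these, 5665 (35.5% of the genes tested) were higher and 5484 (34.4%) were lower in TOM-1, and 5673 (35.5%) differed at least 2-fold. The libraries of the lines did not overlap for 11732 genes (73.5%). With so many genes called, a list of genes is described here by the direction of its calls and by its median, beside a median of 0.03 over all genes tested. Counts of members called higher or lower are to be read against the 35.5% and 34.4% of all genes.

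Much of this difference was present without treatment. Of the 11149 called genes, 7126 (63.9%) were called in the same direction in control culture, where 9047 (56.7%) of the 15958 genes were called, and 52.8% of the 18321 genes tested there. With all 12 libraries that overlap was 4687 genes (42.0%), so its size rests on TOM-1 control replicate 3. A further 3451 were called only under ADI-PEG20, and for 1768 of those the line difference itself was larger or smaller under treatment by the test of the interaction. Control calls came from another fit, on 11 libraries without TOM-1 control replicate 3. A gene not called there may still differ in control culture. In 572 genes (3.58%) the difference was called in opposite directions in the 2 states, and in 280 with all 12 libraries. Across 18321 genes that could be tested in 11 libraries, the difference between the lines depended on ADI-PEG20 for 5567 (30.4%), 2876 (15.7%) with a higher and 2691 (14.7%) with a lower TOM-1 to RS4;11 ratio under treatment. Later shares of 15.7% and 14.7% are over these 18321 genes. Of the 15958 genes tested between the treated lines, which hold the list members, 2834 had a called rise and 2655 a called fall of this ratio. Changes of the line difference share the 6 treated libraries with the main comparison. Fitted with all 12 libraries, the line difference depended on ADI-PEG20 for 2072 genes, 1022 higher and 1050 lower. Shares from 11 libraries are no background for list counts from that fit.

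Gene groups separated the treated lines in different ways. Genes of the amino acid response, p53 targets, MHC class II genes and genes linked to BCR-ABL1 and STAT5 signalling had medians of 1.82, 1.10, 1.57 and 1.03, all higher in TOM-1. Genes for lipid synthesis (-1.62), ribosome biogenesis (-0.97), oxidative phosphorylation (-0.88), DNA replication (-0.78) and ribosomal proteins (-0.73) were lower in TOM-1. Genes of KMT2A-rearranged leukaemia had a median of -4.92. In control culture the medians for the amino acid response and for p53 targets were 0.13 and 0.00 (0.44 and 0.18 with all 12 libraries), whereas the MHC class II median was 1.53 (1.79). In the plot of the gene lists, these 2 kinds of list are told apart by the distance between the filled and the open diamond.

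**Figure D1:**
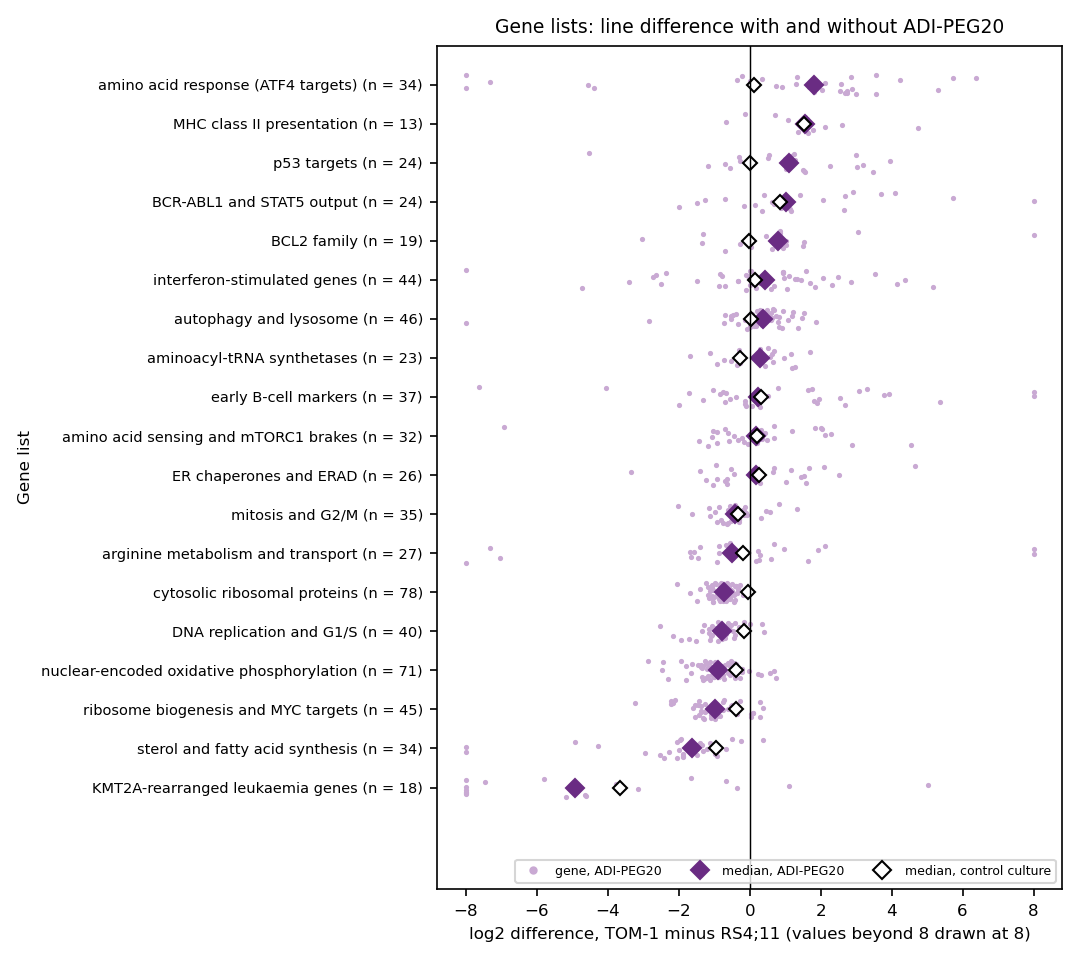
Log2 difference between the lines (horizontal axis, TOM-1 minus RS4;11, values beyond 8 drawn at 8) for the tested genes of each list (vertical axis, n = genes tested). Small points are genes under ADI-PEG20, filled diamonds are list medians under ADI-PEG20 and open diamonds are list medians in control culture without TOM-1 control replicate 3. The median of the amino acid response list lies at 0.13 in control culture and at 1.82 under ADI-PEG20, and that of the MHC class II list at 1.53 and 1.57.

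The enzymes that rebuild arginine were lower in TOM-1, and ASS1 was near 0 there. ASS1 (ENSG00000130707, chromosome 9, 130444929 to 130501274, plus strand, GENCODE release 29 on GRCh38) stood at 0.622, 0.198 and 0 CPM in the TOM-1 libraries, from 14, 5 and 0 counts, and at 271, 266 and 215 CPM in the RS4;11 libraries. The groups did not overlap, and 1 TOM-1 library held no ASS1 read at all. The means were 0.273 ± 0.318 and 251 ± 30.7 CPM (SD, n = 3), a log2 difference of -9.87 (SE 0.22, adjusted p = 1.61e-15). In control culture ASS1 had no reads in TOM-1 replicates 1 and 2 and averaged 161 CPM in RS4;11. Whether the line difference changed with treatment depended on the fit: it was not called (adjusted p = 0.0579, edgeR), and was called with DESeq2 (adjusted p = 0.0249), with no filter on low counts (4.89e-04), without RS4;11 control replicate 3 (0.0393) and without TOM-1 replicate 3 (0.0115). The adjusted p ran from 4.89e-04 to 0.224 over the alternatives.

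ASL stood at 10.8, 11.6 and 12.1 CPM in TOM-1 and at 22.6, 21.6 and 21.9 CPM in RS4;11. It was lower in TOM-1 by a much smaller margin than ASS1, with a log2 difference of -0.93 (SE 0.12, adjusted p = 4.31e-06) and no overlap of the groups. Its value is uncertain because 17.6% of its exonic sequence also belongs to a same-strand neighbour, and how the counting treated such reads is not given in the sources used here.

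The ASS1 promoter is shown because this gene separates the lines so widely, and because the stretch holds the E-box CACGTG, a sequence read by MYC and other helix-loop-helix factors. The bases are from RefSeq (GRCh38.p14, plus strand, chr9:130444790-130444928), 5′ to 3′, with the E-box in capitals.
ASS1: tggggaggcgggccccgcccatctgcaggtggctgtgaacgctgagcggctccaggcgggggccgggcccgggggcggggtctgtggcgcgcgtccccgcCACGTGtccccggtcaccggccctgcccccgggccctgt
The E-box begins 71 bases before the RefSeq start of the gene at 130444961, and the stretch ends before the GENCODE start given above. Its letters, the same on both strands, occurred within 250 bases upstream of 6 of the 20 tested arginine genes with a promoter entry (30.0%: ALDH18A1, ASS1, CPS1, ODC1, SLC7A7 and SRM), of 11.1% of 10922 tested genes and of 7.73% of 27305 genes in the promoter table. These are matches of letters and do not show that a factor was bound.

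Of the cationic amino acid carriers, SLC7A1 had the highest level in both lines, and SLC7A2 and SLC7A3 were each read almost entirely in 1 line. SLC7A1, the main cationic amino acid transporter of most dividing cells, was at 482, 473 and 474 CPM in TOM-1 and 261, 244 and 228 CPM in RS4;11, a log2 difference of 0.96 (SE 0.06, adjusted p = 1.63e-10). SLC7A2, a second cationic transporter, was at 42.04, 37.5 and 35.4 CPM in TOM-1 and had 0 counts in every treated RS4;11 library, a level at least 263-fold higher in TOM-1. SLC7A3, the other member of this transporter family, went the opposite way, with 0, 6 and 4 counts in the TOM-1 libraries and 23.3, 23.9 and 21.1 CPM in RS4;11. The SLC7A2 and SLC7A3 differences were as wide in control culture, where SLC7A2 had a mean of 30.4 CPM in TOM-1 and 0 in RS4;11. Of these carriers, SLC7A1 was the only one with a called change of the line difference, 0.38 on the log2 scale (adjusted p = 0.00327). This change was not called with all 12 libraries (adjusted p = 0.267). Without TOM-1 control replicate 2, which left 1 TOM-1 control library in the fit, the change was 0.30 on the log2 scale.

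Enzymes that use arginine or ornithine were split as well. OAT, ornithine aminotransferase, which links ornithine to glutamate and proline, was at 16.8, 20.2 and 19.6 CPM in TOM-1 and had 0 counts in the RS4;11 libraries, at least 129.7-fold higher in TOM-1. ODC1, which turns ornithine into the polyamine putrescine, was slightly higher in TOM-1 (616 ± 19.5 against 503 ± 15.6 CPM, SD, n = 3, log2 difference 0.29, adjusted p = 7.02e-05). ARG2, the mitochondrial arginase, was near 1 CPM in both lines and was not called (1.64, 0.514 and 0.819 CPM in TOM-1 and 0.706, 0.961 and 0.962 CPM in RS4;11, adjusted p = 0.797), and 37.4% of its exonic bases lie opposite another gene. Of the 32 genes listed for arginine metabolism and transport, 27 were tested, 9 were called higher and 14 lower in TOM-1, against 69.9% of all genes called in either direction. The list median was -0.51, and -0.20 in control culture (-0.077 with all 12 libraries). Without RS4;11 replicate 2 the median was -0.21, so its size rests in part on that library.

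**Figure D2:**
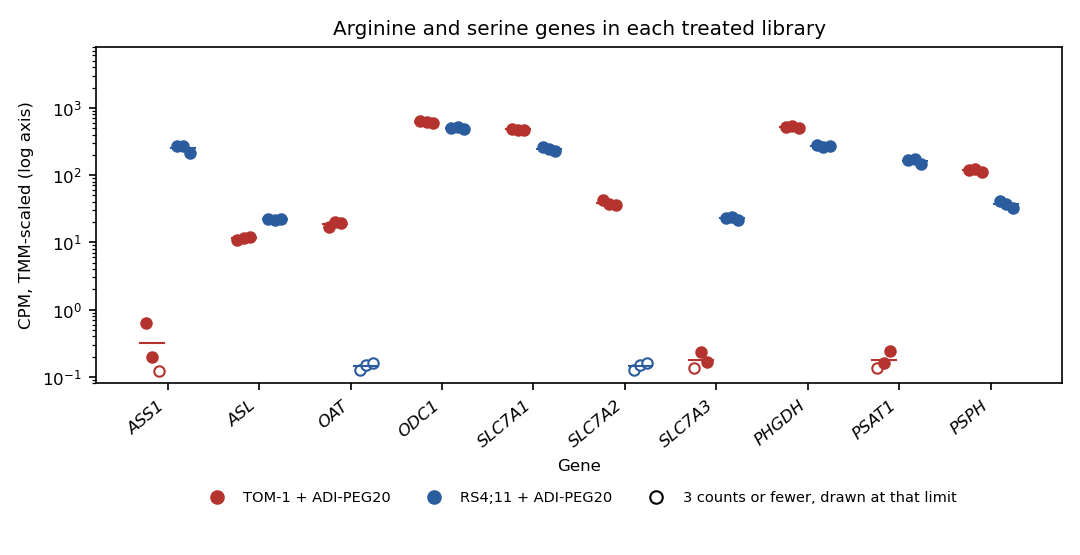
CPM on a log axis (vertical) for genes of arginine metabolism, arginine transport and serine synthesis (horizontal) in each library treated with ADI-PEG20; short lines are means, and open circles are libraries with 3 counts or fewer, drawn at that limit. ASS1, SLC7A3 and PSAT1 lie near the limit in TOM-1 and above 10 CPM in RS4;11, and OAT and SLC7A2 show the opposite arrangement.

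In most genes of the amino acid response the line difference moved toward TOM-1 under treatment. Of 34 tested genes in the list of ATF4 targets, 25 were higher and 6 lower in TOM-1, with a median of 1.82. In control culture the median was 0.13, and 0.44 with all 12 libraries. For 27 of the 34 genes the line difference moved toward TOM-1 under treatment, and for none toward RS4;11, against 15.7% of all genes moving toward TOM-1. With all 12 libraries 19 of the 34 moved toward TOM-1, as did 1022 of all genes tested in that fit.

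TRIB3, a pseudokinase gene induced by ATF4 and CHOP, was at 970.5, 913 and 877 CPM in TOM-1 and 25.3, 26.1 and 17.95 CPM in RS4;11. Every TOM-1 library was far above every RS4;11 library, with a log2 difference of 5.31 (SE 0.10, adjusted p = 2.6e-16), against 1.39 in control culture. STC2, which encodes the secreted glycoprotein stanniocalcin 2, was at 294, 297 and 299 CPM in TOM-1 and 3.24, 3.54 and 3.90 CPM in RS4;11, the widest positive difference of the list at 6.39 (SE 0.08, adjusted p = 2.75e-18). GDF15, a secreted stress cytokine, was at 7.24, 8.82 and 7.61 CPM in TOM-1, with 4, 5 and 0 counts in the RS4;11 libraries. Its mean was 0.0426 CPM in TOM-1 control culture and 0.127 CPM in RS4;11 control culture, so treated TOM-1 was the only group above 1 CPM.

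Among transcription factors of the response, ATF3 and DDIT3 were higher in TOM-1 and ATF4 was lower. ATF3 stood at 99.2, 99.95 and 96.7 CPM in TOM-1 and 8.35, 10.02 and 6.79 CPM in RS4;11, a log2 difference of 3.55 (SE 0.11, adjusted p = 5.67e-14). DDIT3, which encodes CHOP, was at 105 ± 3.77 CPM in TOM-1 against 15.7 ± 1.67 CPM in RS4;11 (SD, n = 3), with a log2 difference of 2.74, and the lines did not differ past the threshold in control culture (-0.09, adjusted p = 0.618). DDIT3 reads are uncertain in that 31.6% of its exonic bases lie opposite another gene. ATF4 was at 456, 453 and 453 CPM in TOM-1 and 605, 646 and 583 CPM in RS4;11, a log2 difference of -0.43 (SE 0.05, adjusted p = 1.41e-06). ATF4 is controlled largely at translation, which these counts do not measure, and its difference was not called in the fit on all 12 libraries (-0.42, adjusted p = 0.0843).

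Genes that restrain growth or adjust redox state followed the same direction. SESN2, a leucine sensor that restrains mTORC1, was at 212, 215 and 212 CPM in TOM-1 and 29.7, 29.3 and 27.2 CPM in RS4;11 (log2 difference 2.89, SE 0.06, adjusted p = 8.31e-16). CHAC1, which degrades glutathione, was at 53.8, 53.1 and 53.5 CPM in TOM-1 and 11.01, 7.23 and 8.92 CPM in RS4;11 (log2 difference 2.55, SE 0.13, adjusted p = 2.38e-11). PPP1R15A, whose product GADD34 directs a phosphatase to eIF2α and so restores translation, differed by 3.57 under treatment and by 0.17 in control culture, where it was not called (adjusted p = 0.0803). DDIT4, an mTORC1 brake, was higher in TOM-1 by 2.05 (adjusted p = 1.42e-14), and 41.2% of the gene's exons lie opposite another gene.

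Transporters of the response included SLC7A3, lower in TOM-1 as described above, and others that were higher. SLC7A11, the cystine importer, was at 142 ± 2.02 CPM in TOM-1 against 23.9 ± 2.66 CPM in RS4;11 (SD, n = 3), a log2 difference of 2.57. SLC7A5, the large neutral amino acid carrier, was at 1529 ± 25.7 and 621 ± 24.9 CPM, a log2 difference of 1.30. ASNS, asparagine synthetase and a classic target of the pathway, was low in both lines, at 5.02, 5.90 and 5.08 CPM in TOM-1 and 0.665, 1.06 and 0.267 CPM in RS4;11, with a log2 difference of 2.99 (SE 0.40, adjusted p = 5.71e-06). Same-strand neighbours cover 44.6% of the exonic bases of ASNS, which makes its level uncertain.

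Serine synthesis was split within a single pathway. PHGDH, its first enzyme, was higher in TOM-1 (513 ± 17.2 against 271 ± 7.58 CPM, SD, n = 3, log2 difference 0.92, adjusted p = 9.35e-11), and PSPH, its last enzyme, was higher by 1.66. PSAT1, the enzyme between them, had 0, 4 and 6 counts in the TOM-1 libraries and stood at 167, 171 and 148 CPM in RS4;11, a log2 difference of -10.14 (SE 0.19, adjusted p = 1.93e-16). PSAT1 was as low in TOM-1 control culture (0.128 CPM). Within the list, the 6 genes lower in TOM-1 were PSAT1, ADM2, SLC7A3, ALDH1L2, VLDLR and GPT2, named here because they go against the rest, after their values were seen.

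**Figure D3:**
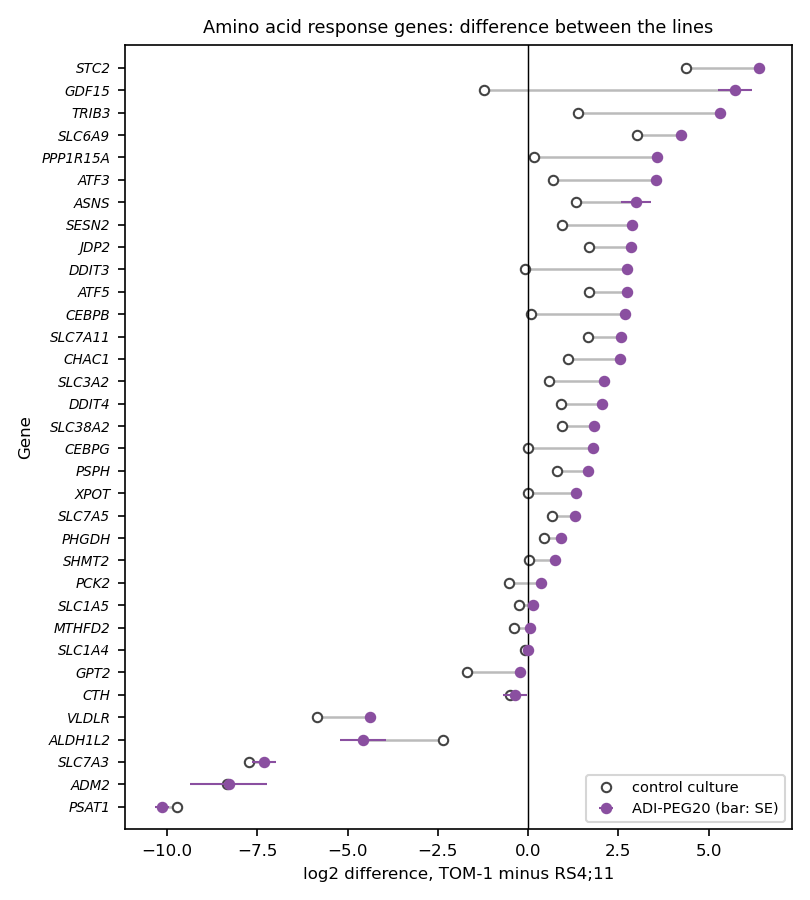
Log2 difference between the lines (horizontal axis, TOM-1 minus RS4;11) for the 34 tested genes of the amino acid response list (vertical axis); filled circles are ADI-PEG20 with the standard error as a bar, open circles are control culture. TRIB3 moves from 1.39 in control culture to 5.31 under ADI-PEG20, and PSAT1 lies near -10 in both states.

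Promoters of genes in this response are shown for the element TGATGNAA, the letters of the site where ATF4 pairs with a C/EBP factor, since these genes moved together. The stretches are RefSeq sequence (GRCh38.p14), 5′ to 3′ on the strand of each gene and upstream of its RefSeq start, with the element in capitals; a match on the other strand reads TTGCATCA in these genes. They are CHAC1 (chr15:40953222-40953309, plus strand), CEBPG (chr19:33374031-33374112, plus strand), ATF3 (chr1:212565176-212565263, plus strand), JDP2 (chr14:75427966-75428021, plus strand) and the tRNA synthetase genes AARS1 (chr16:70289646-70289733, minus strand) and IARS1 (chr9:92293698-92293750, minus strand).
CHAC1: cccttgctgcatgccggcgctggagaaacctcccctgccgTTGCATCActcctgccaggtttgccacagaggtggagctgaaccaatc
CEBPG: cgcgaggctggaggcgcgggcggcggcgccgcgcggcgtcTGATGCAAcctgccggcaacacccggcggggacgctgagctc
ATF3: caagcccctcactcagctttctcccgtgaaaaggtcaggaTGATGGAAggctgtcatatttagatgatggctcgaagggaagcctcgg
JDP2: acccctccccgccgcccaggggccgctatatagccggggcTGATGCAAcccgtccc
AARS1: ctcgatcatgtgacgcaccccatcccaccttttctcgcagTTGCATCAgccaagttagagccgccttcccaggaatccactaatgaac
IARS1: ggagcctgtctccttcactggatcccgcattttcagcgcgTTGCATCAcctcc
The element begins 42 bases before the RefSeq start of CEBPG and 209 bases before that of CHAC1. Within 250 bases upstream it occurred in 6 of the 28 tested genes of the list with a promoter entry (21.4%: ASNS, ATF3, CEBPG, CHAC1, JDP2 and SLC1A5), in 3 of 19 tRNA synthetase genes (15.8%: AARS1, GARS1 and IARS1), in 2.37% of 10922 tested genes and in 3.89% of 27305 genes in the table. Because the list was made of ATF4 targets, a higher share there than over all genes is no independent result. All 6 response genes that held the element were called higher in TOM-1, from 0.13 for SLC1A5, a glutamine carrier, to 3.55 for ATF3. In the whole list 25 of the 34 tested genes were called higher, against 35.5% of all genes. The count of 6 therefore does not set genes with the element apart from the list. Among the synthetases, AARS1 was higher by 1.19 and IARS1 was lower by -0.32 on the log2 scale, so genes with the same letters differed in opposite directions. TRIB3 and DDIT3 held no match in this window, which says nothing of sites elsewhere.

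The cytosolic aminoacyl-tRNA synthetases, which charge tRNA with amino acids, separated into higher and lower members. All 23 genes of the list were called, 13 higher and 10 lower in TOM-1, with a median of 0.28 under ADI-PEG20 and -0.27 in control culture. In 7 of them (30.4%) the line difference was called in opposite directions in the 2 states, against 3.58% of all genes, and in 3 with all 12 libraries. WARS1, for tryptophan, was at 568, 579.8 and 563 CPM in TOM-1 and 181, 178 and 169 CPM in RS4;11, a log2 difference of 1.70 (SE 0.05, adjusted p = 4.85e-14), against 0.12 in control culture, where it was not called. CARS1, for cysteine, differed by 1.29 (adjusted p = 6.41e-12). QARS1, for glutamine, was the lowest member relative to RS4;11, at 96.5, 93.2 and 95.3 CPM in TOM-1 and 308, 327 and 283 CPM in RS4;11 (log2 difference -1.69, SE 0.06, adjusted p = 4.16e-13), and VARS1, for valine, followed at -1.13. The arginine enzyme RARS1 was lower in TOM-1, by -0.28 on the log2 scale (adjusted p = 0.00422). It was named after its values were seen, for its amino acid.

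Genes that report amino acids to mTORC1 or restrain it showed no common direction. Of 32 tested, 15 were higher and 13 lower in TOM-1, with a median of 0.17, and 0.21 in control culture. The median was 0.093 without RS4;11 replicate 3, 0.11 without RS4;11 replicate 1 and -0.053 with the length trend taken out. SESN3, a sestrin that restrains mTORC1, was at 84.3, 84.4 and 76.2 CPM in TOM-1 and 2.62, 4.25 and 3.79 CPM in RS4;11, a log2 difference of 4.54 (SE 0.13, adjusted p = 3.48e-14) that was as wide in control culture (4.89). FNIP2, a partner of folliculin, had 1, 12 and 1 counts in TOM-1 and 28.8, 20.5 and 23.6 CPM in RS4;11. KPTN, a subunit of the complex that holds GATOR1 at the lysosome, was lower in TOM-1 by -1.44 on the log2 scale (adjusted p = 6.51e-06). EIF4EBP1, a translational repressor that is itself an ATF4 target, was higher by 0.69 (adjusted p = 2.65e-08) but was not called in the fit on all 12 libraries.

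Ribosomal protein genes were lower in treated TOM-1 almost without exception. Of 78 genes, 76 were called lower and none higher, against 34.4% of all genes called lower, and the median log2 difference was -0.73. In control culture the median was -0.04, with 15 called higher and 17 lower, but with all 12 libraries it was 0.61, with 13 called higher and none lower, so TOM-1 control replicate 3 decides that value. RPS26 was at 105, 104 and 93.8 CPM in TOM-1 and 412, 429.7 and 407 CPM in RS4;11 (log2 difference -2.05, SE 0.06, adjusted p = 2.33e-14). RPL35 was at 273, 268 and 259 and 849.9, 956 and 787 CPM (log2 difference -1.70, SE 0.07, adjusted p = 9.38e-13). As a share of all counts, these genes took 5.92% to 6.07% in the TOM-1 libraries and 8.83% to 9.95% in the RS4;11 libraries. Single members are uncertain because ribosomal protein genes have many near-identical pseudogene copies. For 76 of the 78 the line difference was lower under treatment than in control culture, against 14.7% of all genes. With all 12 libraries this held for 27 of the 78, and for 1050 of all genes tested in that fit.

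Differences also followed transcript length across all genes: the median log2 difference was -0.10 in the shortest of 4 equal groups of genes by exonic length and 0.26 in the longest. With a smooth trend on length taken out, an alternative chosen after seeing the data, the medians were -0.70 for the ribosomal proteins and 1.81 for the amino acid response. The part of RNA quality in these differences was not tested.

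Genes for building ribosomes were lower in TOM-1 too. Of 45 genes for ribosome biogenesis and MYC targets, 38 were lower and 2 higher, with a median of -0.97, and -0.40 in control culture (-0.18 with all 12 libraries). HSPE1, the mitochondrial co-chaperonin and a MYC target, was at 18.5, 18.4 and 14.1 CPM in TOM-1 and 142, 171 and 168 CPM in RS4;11, a log2 difference of -3.24 (SE 0.10, adjusted p = 7.91e-14). It overlaps opposite-strand exons over 14.2% of its bases. TFRC, the transferrin receptor, which brings iron into dividing cells, was at 86.1, 82.3 and 77.7 CPM in TOM-1 and 383, 385 and 388 CPM in RS4;11, a log2 difference of -2.23 (SE 0.06, adjusted p = 4.83e-15). In control culture these genes differed by -0.78 and -0.30, the former not called with all 12 libraries (-0.32, adjusted p = 0.375). The 2 members higher in TOM-1 were ODC1 and TAF1D, a subunit of the RNA polymerase I selectivity factor, at 0.37 (adjusted p = 0.00103), with a same-strand overlap of 11.2%.

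Nuclear-encoded subunits of the respiratory chain and ATP synthase were lower in treated TOM-1 in 65 of 71 genes and higher in 4. Over all genes, 34.4% were called lower and 35.5% higher. The list median was -0.88, and -0.39 in control culture, a value whose sign TOM-1 control replicate 3 decides (0.094 with all 12 libraries). SDHC, a membrane subunit of complex II, was at 12.3, 13.97 and 13.3 CPM in TOM-1 and 78.3, 74.2 and 67.8 CPM in RS4;11 (log2 difference -2.48, SE 0.09, adjusted p = 7.65e-13), and was nearly as far apart in control culture (-2.14). ATP5ME, a subunit of ATP synthase, differed by -2.87 (adjusted p = 1.59e-10), but 61.6% of its exonic bases lie opposite another gene. NDUFA13 and NDUFS4, subunits of complex I, were among the few higher in TOM-1, at 0.73 (adjusted p = 0.00243) and 0.56 (adjusted p = 6.52e-05). Neither was called in the fit on all 12 libraries, and 21.00% of NDUFA13 is shared with another gene.

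Lipid synthesis genes were lower in treated TOM-1 with a single exception. Of 34 genes for sterol and fatty acid synthesis, 33 were lower and 1 was higher in TOM-1, with a median of -1.62. In control culture the median was -0.95. For 25 genes the line difference moved down under treatment, 14 with all 12 libraries, against 14.7% of all genes in the fit on 11 libraries. In the fit on all 12 libraries, 1050 of all genes moved down. SCD, stearoyl-CoA desaturase, which makes monounsaturated fatty acids, was at 8.22, 9.93 and 7.86 CPM in TOM-1 and 264, 279 and 254 CPM in RS4;11. The groups were far apart, with a log2 difference of -4.93 (SE 0.08, adjusted p = 7.36e-17). In control culture SCD averaged 108 CPM in TOM-1 against 274 CPM in RS4;11, a difference of -1.35, so the change of the line difference was -3.58 (adjusted p = 6.94e-15).

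CYP51A1, lanosterol demethylase, had 0 counts in all 3 TOM-1 libraries, but at 7.93, 4.05 and 6.30 CPM in RS4;11 and with 79.4% of its exonic bases shared with another gene its level is uncertain. ELOVL5, an elongase of polyunsaturated fatty acids, was the single member higher in TOM-1 (321 ± 5.36 against 247 ± 2.90 CPM, SD, n = 3, log2 difference 0.37, adjusted p = 3.48e-06), a call lost in the fit on all 12 libraries.

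Targets of p53 were higher in TOM-1 under ADI-PEG20. Of 24 tested, 17 were higher and 3 lower, against 35.5% and 34.4% of all genes. The list median was 1.10, and 0.00 in control culture (0.18 with all 12 libraries). For 19 genes the line difference moved toward TOM-1 and for none toward RS4;11, with 8 and none in the fit on all 12 libraries. Over all genes, 15.7% moved toward TOM-1 and 14.7% toward RS4;11 in the fit on 11 libraries. With all 12 libraries 1022 and 1050 of all genes did so. In 5 genes the calls in the 2 states were in opposite directions, against 3.58% of all genes, and in 3 with all 12 libraries.

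CDKN1A, the cyclin-dependent kinase inhibitor p21, was at 365, 369.8 and 341 CPM in TOM-1 and 123, 125 and 120.2 CPM in RS4;11, a log2 difference of 1.55 (SE 0.05, adjusted p = 2.89e-13). In control culture the order was reversed, 91.8 CPM in TOM-1 against 133 CPM in RS4;11, a difference of -0.54 (adjusted p = 8.02e-07) that was not called with all 12 libraries (-0.37, adjusted p = 0.0517). BBC3, which encodes the BH3-only protein PUMA, was at 55.5, 65.9 and 59.4 CPM in TOM-1 and 20.9, 22.4 and 19.2 CPM in RS4;11 under treatment (1.53, adjusted p = 4.25e-10) and differed by -0.55 in control culture, which TOM-1 control replicate 3 decides (-0.14 with all 12 libraries, adjusted p = 0.704). PMAIP1, which encodes NOXA, went from -0.59 in control culture (-0.73, adjusted p = 0.00112, with all 12 libraries) to 1.02 under ADI-PEG20 (adjusted p = 4.09e-11). For these 3 genes the change of the line difference was 2.09, 2.08 and 1.61, called also with all 12 libraries (adjusted p = 1.57e-04, 0.00839 and 2.71e-04).

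Other members of the list were already higher in TOM-1 without treatment. MDM2, the ubiquitin ligase that restrains p53, was at 1111, 1111 and 1069 CPM in TOM-1 and 98.5, 99.96 and 96.4 CPM in RS4;11, a log2 difference of 3.48 (SE 0.05), against 3.15 in control culture. TP53INP1, an autophagy and cell death regulator, differed by 3.96 (adjusted p = 2.75e-11). SESN1 (-1.18, adjusted p = 1.28e-08) and the DNA repair gene XPC (-0.70, adjusted p = 2.16e-05) were lower in TOM-1. The XPC call was lost in the fit on all 12 libraries, and 30.4% of its exonic bases lie opposite another gene.

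**Figure D4:**
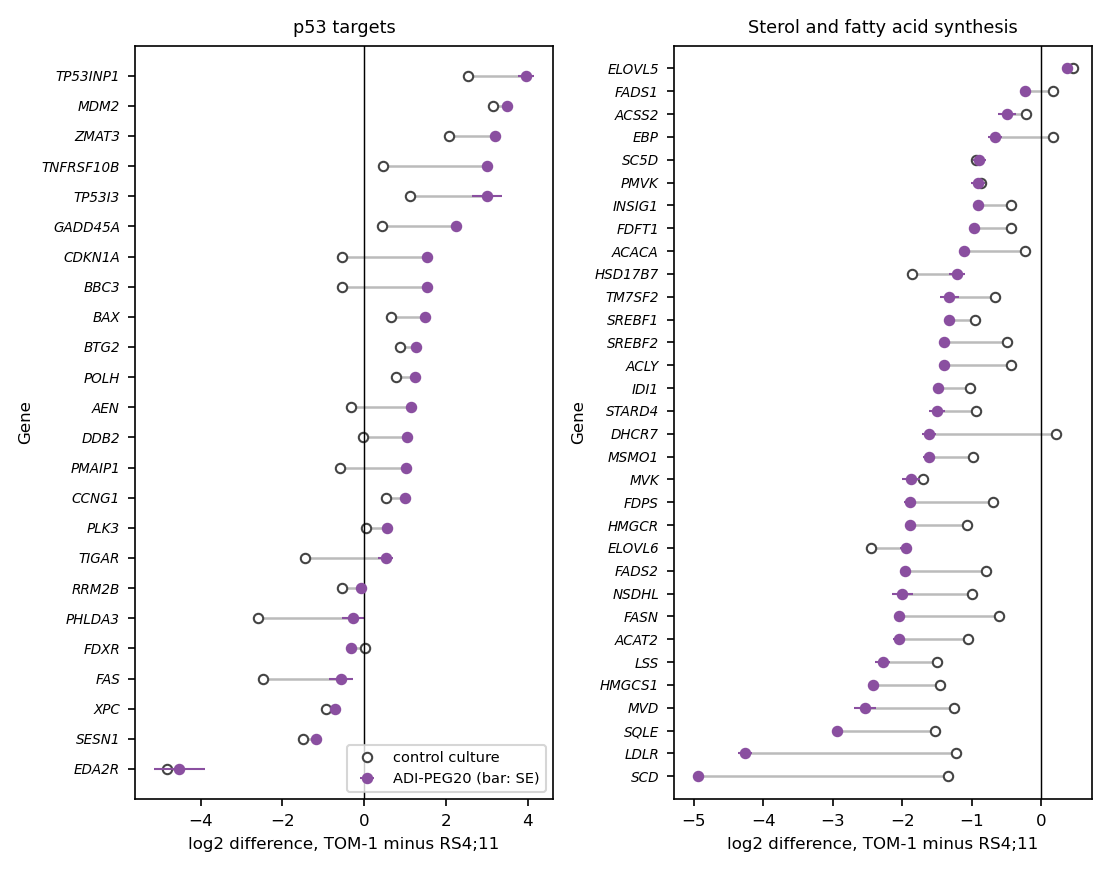
Log2 difference between the lines (horizontal axes, TOM-1 minus RS4;11) for the tested p53 targets (left) and the genes of sterol and fatty acid synthesis (right, without genes that had no reads in treated TOM-1); filled circles are ADI-PEG20 with the standard error as a bar, open circles are control culture without TOM-1 control replicate 3. CDKN1A, BBC3 and PMAIP1 cross from below 0 to above 0, and SCD moves from -1.35 to -4.93.

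The cell death genes of the BCL2 family were higher in TOM-1 in 11 of 19 tested and lower in 4. In all, 78.9% of the family was called, against 69.9% of all genes. The family median was 0.81, and -0.02 in control culture (0.22 with all 12 libraries). BCL2, the survival protein that venetoclax inhibits, was at 200.1, 214 and 189 CPM in TOM-1 and 339, 326 and 307 CPM in RS4;11 (log2 difference -0.69, SE 0.06, adjusted p = 2.21e-08). MCL1, another survival protein, did not pass the test (0.03, adjusted p = 0.600), and its libraries overlapped between the lines. Killers were higher or lower by member: BCL2L11, which encodes BIM, was lower in TOM-1 (22.9 ± 2.56 against 58.5 ± 0.447 CPM, SD, n = 3, log2 difference -1.36), BID was lower by -3.04 on the log2 scale, and BNIP3, a mitophagy receptor, was higher by 3.05. BCL2L11 has 10.9% of its exonic bases opposite another gene.

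DNA replication genes were lower in treated TOM-1. Of 40 genes, 36 were lower and 2 higher, against 34.4% and 35.5% of all genes. The list median was -0.78, and -0.17 in control culture. UNG, the uracil glycosylase that acts at replication forks, was at 21.02, 22.4 and 22.2 CPM in TOM-1 and 132, 136 and 113 CPM in RS4;11 (log2 difference -2.54, SE 0.08, adjusted p = 1.27e-13). GINS2, a subunit of the replicative helicase complex, was at 27.7, 23.7 and 26.1 and 119.5, 127 and 101 CPM (log2 difference -2.17, SE 0.09, adjusted p = 2.84e-12). In control culture both genes were closer together, at -0.60 and -0.81, the latter not called with all 12 libraries (-0.39, adjusted p = 0.232). The transcription factor E2F1 (0.35, adjusted p = 1.15e-04) and POLA1, the catalytic subunit of DNA polymerase alpha (0.40, adjusted p = 1.36e-05), were higher in TOM-1, and both calls were lost in the fit on all 12 libraries.

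Mitotic genes were lower in TOM-1 in fewer cases. Of 35, 23 were lower, 4 higher and 8 not called, so that 77.1% were called, against 69.9% of all genes. The list median was -0.42, close to the -0.34 of control culture. CKS2, a cyclin-dependent kinase subunit, was at 21.3 ± 2.70 CPM in TOM-1 against 86.2 ± 2.43 CPM in RS4;11 (SD, n = 3, log2 difference -2.02, adjusted p = 6.67e-12), and KIF20A, a kinesin of cytokinesis, differed by -1.61. UBE2C, the ubiquitin-conjugating enzyme of the anaphase-promoting complex, was higher in TOM-1 at 77.6, 94.8 and 81.3 CPM against 34.02, 31.3 and 35.00 CPM (1.34, adjusted p = 7.38e-10), as was ANLN, a scaffold of the cleavage furrow (0.83).

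Genes of the endoplasmic reticulum (ER) had no common direction. Of 26 genes for ER chaperones and ER-associated degradation, 13 were higher and 11 lower in TOM-1. ERN1, the stress sensor IRE1, was at 191, 207 and 191 CPM in TOM-1 and 8.06, 7.13 and 8.01 CPM in RS4;11, a log2 difference of 4.66 (SE 0.08, adjusted p = 7.28e-17), against 1.34 in control culture. EDEM1, which sends misfolded glycoproteins to degradation, was at 1606, 1639.5 and 1641 CPM in TOM-1 and 298, 277 and 284 CPM in RS4;11 (log2 difference 2.51, SE 0.05, adjusted p = 4.94e-16). SDF2L1, a luminal co-chaperone component, was lower in TOM-1 (12.2 ± 1.27 against 32.1 ± 0.536 CPM, SD, n = 3, log2 difference -1.40). DERL3, a retrotranslocation factor, was at 0.489, 0.989 and 2.09 CPM in TOM-1 and 12.7, 12.4 and 11.7 CPM in RS4;11 (-3.35, adjusted p = 1.73e-07), but 77.00% of its exonic bases lie opposite another gene. The chaperone genes HSPA5, HSP90B1 and CALR, named after their values were seen, were lower in TOM-1, at -1.04, -0.63 and -0.93. They do not stand for the list, in which 13 of 26 genes were higher. The list median was 0.17, with 0.056 without RS4;11 replicate 3 and 0.11 without TOM-1 replicate 2, and gives the list no clear direction.

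Autophagy and lysosome genes were higher in TOM-1 in 24 of 46 tested and lower in 9, with a median of 0.39, and 0.03 in control culture (0.15 with all 12 libraries). The share called, 71.7%, was close to the 69.9% of all genes. MAP1LC3B, the LC3 protein of autophagosome membranes, was at 297, 297 and 301 CPM in TOM-1 and 78.96, 83.1 and 81.2 CPM in RS4;11, a log2 difference of 1.88 (SE 0.05, adjusted p = 2.33e-14). In control culture it was at 81.7 and 80.7 CPM and was not called (adjusted p = 0.881). ULK1, the kinase that starts autophagy, was lower, at 75.2 ± 4.35 CPM against 123 ± 6.96 CPM (SD, n = 3, log2 difference -0.71, adjusted p = 6.43e-08), as was the lysosomal protease CTSZ (-0.69).

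The interferon-stimulated genes were higher in TOM-1 in 21 of 44 and lower in 11, with 12 not called. In all, 72.7% of this list was called, close to the 69.9% of all genes. XAF1, an interferon-induced antagonist of XIAP, was at 206, 210.0 and 200.4 CPM in TOM-1 and 17.3, 16.2 and 19.6 CPM in RS4;11 (log2 difference 3.54, SE 0.07, adjusted p = 5.75e-16), and 38.3% of its exonic bases lie opposite another gene. IFITM3, a membrane protein that blocks virus entry, differed by 4.15 (adjusted p = 6.06e-15), with 21.3% opposite another gene and close paralogues. CMPK2, a mitochondrial nucleotide kinase, had 1, 0 and 1 counts in the TOM-1 libraries and 13.7, 9.61 and 12.02 CPM in RS4;11. IFI44 was at 0.355, 0.435 and 0.368 CPM in TOM-1 and 8.51, 10.7 and 11.8 CPM in RS4;11 (-4.71, adjusted p = 6.25e-10). Members thus differed strongly in both directions. The list median was 0.44, and 0.26 without RS4;11 replicate 3.

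MHC class II genes, which present antigen to helper T cells, were higher in TOM-1 in 11 of 13 tested and lower in 1. HLA-DPB1 was at 111, 113 and 105 CPM in TOM-1 and 16.9, 18.9 and 18.7 CPM in RS4;11 (log2 difference 2.60, SE 0.08, adjusted p = 4.99e-14). CD74, the invariant chain, was at 1517 ± 56.7 CPM in TOM-1 against 933 ± 23.7 CPM in RS4;11 (SD, n = 3), a log2 difference of 0.70 under treatment and 1.48 in control culture. HLA-DRB5 differed by 4.73, although reads of the DRB genes can be assigned to the wrong member. HLA-DQB1 changed order, from 0.81 in control culture to -0.66 under ADI-PEG20 (adjusted p = 1.03e-04). The line difference moved down under treatment for 5 genes of the list and up for none, against 14.7% and 15.7% of all genes.

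The lines were told apart by the genes of their leukaemia types. HOXA9, a homeobox factor kept active by KMT2A fusions, had 0 counts in all 3 TOM-1 libraries and 79.4, 81.04 and 82.5 CPM in RS4;11, at least 648-fold lower in TOM-1. HOXA10 and MEIS1, a HOX cofactor, also had 0 counts in TOM-1 and were at least 671-fold and 645-fold lower. Exons of same-strand neighbours cover 15.9% of HOXA9 and 9.90% of HOXA10, and opposite-strand exons cover 13.9% and 16.4%. FLT3, a receptor tyrosine kinase often high in KMT2A-rearranged disease, was well expressed in both lines, at 147, 156 and 142 CPM in TOM-1 and 201, 193 and 181 CPM in RS4;11 (-0.37, adjusted p = 3.31e-05). Of 18 tested genes of this kind, 16 were lower in TOM-1. The exceptions were LGALS1, galectin 1 (1.11), and ADGRG1, an adhesion receptor (5.01). With genes that had no TOM-1 read set at the count limit, the median was -4.55.

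Genes linked to BCR-ABL1 and STAT5 signalling were higher in TOM-1 in 18 of 24 tested and lower in 4, with a median of 1.03, and 0.86 in control culture. ABL1 was at 381, 374 and 350.0 CPM in TOM-1 and 170.1, 168 and 160.1 CPM in RS4;11 (log2 difference 1.15, SE 0.05, adjusted p = 1.17e-11). DUSP6, an ERK phosphatase induced by ERK signalling, was at 301, 323 and 324 CPM in TOM-1 and 5.11, 7.79 and 5.24 CPM in RS4;11 (5.72, SE 0.11, adjusted p = 1.94e-16), and 40.5% of the gene's exons lie opposite another gene. The STAT5 targets SOCS2 and CISH were higher in TOM-1 by 1.08 and 0.87, and PIM1 was not called (-0.17, adjusted p = 0.329). D-type cyclins were divided: CCND2 was at 175, 181 and 164 CPM in TOM-1, with 0, 5 and 2 counts in RS4;11, and CCND3 was lower in TOM-1, at 449 ± 17.4 CPM against 1069.6 ± 66.1 CPM (SD, n = 3, log2 difference -1.25). BCL6, a repressor that STAT5 keeps low in precursor B cells, was lower in TOM-1 by -1.48 on the log2 scale (adjusted p = 2.97e-10).

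Both lines expressed transcription factor genes that define a B-cell precursor. PAX5 was at 986, 977 and 962 CPM in TOM-1 and 839, 841 and 729 CPM in RS4;11, and EBF1 at 280.4 ± 7.34 and 300.5 ± 11.5 CPM (SD, n = 3). These factors differed little between the lines: PAX5 by 0.28 (adjusted p = 3.95e-04; 0.16 without RS4;11 replicate 3, and not called in the fit on all 12 libraries) and EBF1 by -0.10 (adjusted p = 0.0963). EBF1 was called in 3 alternatives, with DESeq2 (-0.14), with upper-quartile scaling (-0.17) and without RS4;11 replicate 3 (-0.18). IGLL1, a surrogate light chain, was called at 0.20 (adjusted p = 0.0122), but not without RS4;11 replicate 3 (0.063) or without RS4;11 replicate 1 (0.18).

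Stage markers separated the lines sharply. DNTT, the terminal transferase of early lymphoid cells, was at 3699, 3665 and 3489.6 CPM in TOM-1 and 94.5, 96.7 and 73.6 CPM in RS4;11 (log2 difference 5.36, SE 0.09, adjusted p = 6.93e-17). MME, which encodes the common ALL antigen CD10, was at 547, 552 and 547 CPM in TOM-1, with 2, 1 and 0 counts in RS4;11. MS4A1, which encodes CD20, was at 257, 246 and 248 CPM in TOM-1, with 0, 0 and 2 counts in RS4;11. CD79A, a signalling chain of the B-cell receptor, was higher in RS4;11 (139 ± 3.89 against 345 ± 11.8 CPM, SD, n = 3, log2 difference -1.31), as were the receptor gene TLR10 (-7.62) and the transcription factor gene SPIB (-4.04), the latter with 19.6% of its exonic bases shared. In all, 21 of 37 tested early B-cell genes were higher and 12 lower in TOM-1, with a median of 0.23.

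**Figure D5:**
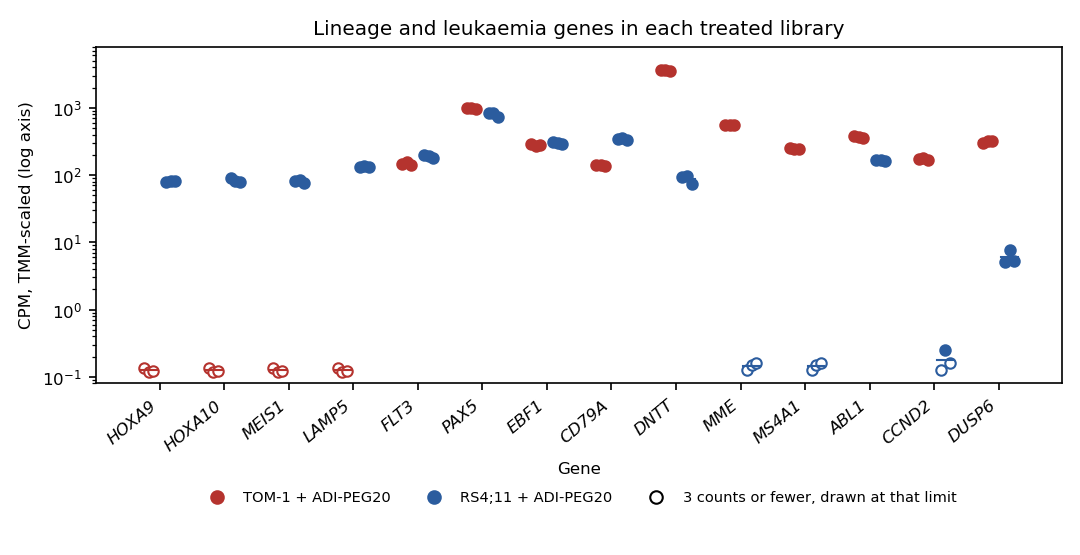
CPM on a log axis (vertical) for lineage and leukaemia genes (horizontal) in each library treated with ADI-PEG20; short lines are means, and open circles are libraries with 3 counts or fewer, drawn at that limit. HOXA9, HOXA10, MEIS1 and LAMP5 have no reads in TOM-1, MME and MS4A1 are at the limit in RS4;11, and PAX5 and EBF1 are above 100 CPM in both lines.

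Most markers of other blood and tissue cells did not pass the filter on low counts, which 15958 of all 60664 genes passed. A marker that did not pass can still have reads. Of 20 T and NK cell markers 6 passed the filter on low counts, of 24 myeloid markers 7, of 14 erythroid and megakaryocyte markers 3, and of 14 stromal and epithelial markers 3. The T-cell receptor genes CD3D, CD3E and CD3G did not pass it. LCK, a T-cell kinase also seen in B-cell leukaemia, was at 4.40, 7.83 and 5.49 CPM in TOM-1 and 53.5, 55.1 and 55.2 CPM in RS4;11, and GATA3 was lower in TOM-1 by -1.27 on the log2 scale. MPO, myeloperoxidase, was at 15.8, 13.4 and 10.2 CPM in TOM-1 and 0.955, 0.405 and 0.641 CPM in RS4;11, CSF3R was at 8.80, 9.42 and 8.23 CPM in TOM-1 with no reads in RS4;11, and CSF1R and CD33 were higher in RS4;11 (15.9, 12.6 and 16.1 and 4.44, 5.72 and 6.20 CPM). PECAM1, which encodes CD31, was at 192, 193 and 195 CPM in TOM-1, with 12, 2 and 6 counts in RS4;11. PDGFRB was higher in RS4;11, at 30.3, 31.6 and 36.3 CPM, and the platelet genes GP9 and ITGA2B were at 7.89, 7.54 and 6.57 and 3.41, 4.91 and 8.23 CPM there. The summed level of the T and NK markers was 128 to 138 CPM in TOM-1 and 213 to 232 CPM in RS4;11. Means of 1 CPM or more were reached by 4 of these 20 markers in TOM-1 and 6 in RS4;11, and LCK made up little of the TOM-1 sum.

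The genes with the widest differences were close to on or off between the lines, and were also called in control culture. In TOM-1 these were, beside MME, MS4A1 and CCND2, CYTL1 (a secreted cytokine-like protein), POU4F1 (a POU homeobox factor), SHANK3 (a synaptic scaffold), KHDRBS3 (an RNA-binding splicing regulator), PXDN (peroxidasin), APP (the amyloid precursor), JMY (a p53 cofactor and actin nucleator), AKAP12 (an anchor of protein kinase A) and ELFN2 (a leucine-rich repeat membrane protein). SHANK3 was at 354, 374 and 362 CPM in TOM-1 and KHDRBS3 at 303, 304 and 303 CPM. Both had 0 counts in RS4;11 and were at least 2497-fold and 2084-fold higher in TOM-1. POU4F1, at 484 ± 5.45 CPM in TOM-1 (SD, n = 3), also had 0 counts in RS4;11 and was at least 3323-fold higher, with 27.7% of its exonic bases opposite another gene. CYTL1 was at 498, 513 and 492 CPM in TOM-1, with 0, 0 and 1 counts in RS4;11. CYTL1, SHANK3, KHDRBS3 and JMY had lower means in TOM-1 control culture (74.2, 197, 128 and 44.6 CPM) than under ADI-PEG20 (501, 363, 303 and 160.1 CPM). POU4F1 and CCND2 went the same way (298 and 114 against 484 and 174 CPM). MME, PXDN, MS4A1, APP, AKAP12 and ELFN2 had higher means in control culture. Control and treated CPM were scaled separately, and these differences within TOM-1 were not tested.

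In RS4;11 the corresponding genes were, beside LAMP5, PRSS12 (neurotrypsin), CCN2 (connective tissue growth factor), CPXM1 (a carboxypeptidase-like protein), ANXA5 (annexin A5), VAT1L, PRL (prolactin), MAGI1 (a junction scaffold), AFDN (afadin), PTPRR (a tyrosine phosphatase) and CLEC14A (a C-type lectin). ANXA5, whose protein binds phosphatidylserine and is used to stain dying cells, was at 142, 152 and 142 CPM in RS4;11 and had 0 counts in TOM-1, at least 1164-fold lower there. PRSS12 was at 339, 346 and 302 CPM in RS4;11 and at least 2633-fold lower in TOM-1, and PRL was at 133, 146 and 129 CPM and at least 1088-fold lower. AFDN, an actin-binding junction protein and a known fusion partner of KMT2A in other leukaemias, was at 128, 131 and 126 CPM and at least 1028-fold lower in TOM-1. CCN2 was at 418, 406 and 409 CPM in RS4;11, with 0, 11 and 4 counts in TOM-1. These RS4;11 genes were also present in RS4;11 control culture, for example PRSS12 at 295 CPM and PRL at 136 CPM.

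A smaller set of protein-coding genes with at least 5 CPM in the higher line differed at least 2-fold under ADI-PEG20, was not called in control culture and had a called change of the line difference in the same direction. There were 172 such genes higher and 147 lower in TOM-1. Not being called in control culture does not show that the lines were alike there. With all 12 libraries the same rule gave 245 and 348, of which 125 and 120 were shared. Beside GDF15 and PPP1R15A, the leading genes higher in TOM-1 were BHLHE40, SLC16A6, PLA2G4C and PLK2. BHLHE40, a stress-responsive transcriptional repressor, was at 24.3, 22.7 and 19.1 CPM in TOM-1, with 0, 3 and 9 counts in RS4;11, and at 0.245 and 0.180 CPM in the control cultures. PLK2, a polo-like kinase induced by p53, was at 21.9, 21.8 and 23.4 CPM in TOM-1 and 2.24, 1.77 and 2.19 CPM in RS4;11 (log2 difference 3.43, SE 0.17, adjusted p = 2.52e-11), against -0.17 in control culture. SLC16A6, a monocarboxylate carrier, and PLA2G4C, a cytosolic phospholipase, were at 11.2 and 11.2 CPM in TOM-1 and below 1 CPM in treated RS4;11 and in both control cultures.

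The leading genes lower in TOM-1 in this set were ZNF341, SNX22, SKP2, NRARP and FABP5, beside DERL3. SKP2, the F-box protein that marks the cell cycle inhibitor p27 for degradation, was at 33.99, 37.5 and 33.1 CPM in TOM-1 and 141, 143 and 133 CPM in RS4;11 (log2 difference -1.99, SE 0.07, adjusted p = 2.67e-13), while the control cultures stood at 128 and 129 CPM. FABP5, a fatty acid binding protein, was at 75.5, 68.1 and 61.3 CPM in TOM-1 and 270.4, 269 and 276 CPM in RS4;11 (-1.99, adjusted p = 2.51e-13), with 271 and 291 CPM in the control cultures. SNX22, a sorting nexin, differed by -2.12 under ADI-PEG20 and by 0.18 in control culture, and NRARP, a feedback inhibitor of NOTCH, by -2.14 and -0.19. ZNF341, a zinc finger factor that drives STAT3 transcription, was at 0.889, 1.31 and 0.573 CPM in TOM-1 and 8.72, 9.16 and 8.07 CPM in RS4;11, with 10.5% of its exonic bases opposite another gene. In each of these 5 genes and the 6 higher ones, the change of the line difference was called with all 12 libraries as well. For GDF15 the call was lost without RS4;11 control replicate 3 (2.32, against 6.95).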

How the data were processed

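Unnormalized read counts for each Ensembl gene, in 1 table, are what the authors deposited. Per the submitters' processing notes, STAR, SAMtools, featureCounts and the build hg38 were used. The annotation release and the use of strand are not given in the sources used here, so overlaps of 10% or more of exonic bases (GENCODE release 29, GRCh38) are stated for named genes. Every column belonged to a sample, and groups came from the sample titles. Per the labels' protocols, RNA was poly(A)-selected.

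Counts were fitted in R 4.3.3 with edgeR 4.0.16 (filterByExpr, TMM, glmQLFit, glmQLFTest). The treated lines were compared on the 6 treated libraries, 15958 genes. The change of the line difference (interaction) and the control values came from 11 libraries, 18321 genes, without TOM-1 control replicate 3, which stands apart. SE is the size of the log2 difference over the square root of F. CPM values are TMM-scaled, with factors from the 6 treated libraries for treated values and from all 12 libraries for control values. The authors' counts were not otherwise changed. Genes at 0 were bounded with 3 counts per library.

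Named are the 12 protein-coding genes per direction with the largest ratio, 42 fixed genes, 2 called members per direction of each of 23 lists, and the 6 genes per direction with the largest interaction among those not called in control culture. Ratios and lists required 5 CPM in the higher line. Genes outside this rule are marked, and 3 genes under it are not reported here. Members and lists were chosen with earlier results of these data known. Alternatives were DESeq2 1.42.0, its size factors, upper-quartile scaling, no filter, a mean of 10 counts, a replicate block, all 12 libraries and each library left out. On simulated data for the 6 libraries, with 200 of 15958 genes changed, edgeR recovered 63 of 100 2-fold and 89 of 100 4-fold changes with 7 false calls. For the interaction, over 18321 genes, it recovered 53 and 65 of 100 with 8. All other genes were simulated without a difference, whereas 69.9% and 30.4% of genes were called in the real comparisons. The simulated counts therefore do not describe those comparisons. Figures used matplotlib 3.10.9. Promoters (250 bases upstream) are from RefSeq, with entries for 10922 tested genes.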

Additional observations from a re-analysis of the deposited data

Results flagged for a closer look

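Each result below is a gene named in the text whose difference between the lines was not the same under ADI-PEG20 as in control culture, by the edgeR interaction test on 11 libraries. The value is the log2 difference under ADI-PEG20 minus that in control culture, and a positive value means that the TOM-1 to RS4;11 ratio was higher under treatment. Of 140 named genes 75 passed, 48 of the 75 also with all 12 libraries, and 63 in each fit that left out 1 of the 11 libraries. Over all genes tested 30.4% passed, and 12 of the 140 were named because their change was called, so the count of 75 is no measure of how often named genes change. Of the 27 not called with all 12 libraries, 5 fell in size by more than 1.5 times, to 0.047 for PHGDH, -0.11 for BCL2, 0.21 for E2F1, -0.25 for FLT3 and -0.31 for POLA1, and IGLL1 and EIF4EBP1 changed direction.

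For genes of the amino acid response and of amino acid transport the values were GDF15 6.95, TRIB3 3.92, PPP1R15A 3.40, ATF3 2.87, DDIT3 2.83, STC2 2.00, SESN2 1.96, CHAC1 1.44, DDIT4 1.14, SLC7A11 0.90, SLC7A5 0.63, EIF4EBP1 0.54, PHGDH 0.47, SLC7A1 0.38 and ATF4 -0.26. For tRNA synthetases they were WARS1 1.58, CARS1 1.06, VARS1 -0.37 and QARS1 -1.13. For p53 targets and cell death genes they were CDKN1A 2.09, BBC3 2.08, PMAIP1 1.61, TP53INP1 1.41, MDM2 0.33, BCL2 -0.40, BCL2L11 -0.86 and BID -0.98. For ribosome, respiration and lipid genes they were TAF1D 0.59, RPL35 -0.77, ATP5ME -0.87, RPS26 -0.95, TFRC -1.93, HSPE1 -2.46 and SCD -3.58. For replication and mitosis they were E2F1 0.42, POLA1 -0.52, KIF20A -0.72, CKS2 -1.14, GINS2 -1.36 and UNG -1.93.

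For ER, autophagy and lysosome genes the values were ERN1 3.32, MAP1LC3B 1.87, EDEM1 0.39, ULK1 -0.71, SDF2L1 -0.93 and DERL3 -2.88. For interferon-stimulated and MHC class II genes they were IFI44 6.20, XAF1 2.07, HLA-DPB1 -0.70, CD74 -0.78, IFITM3 -0.99 and HLA-DQB1 -1.47. For lineage and signalling genes they were GATA3 0.93, PIM1 0.69, EBF1 0.50, SOCS2 0.40, IGLL1 0.32, ABL1 0.24, FLT3 -0.40, PDGFRB -1.06, SPIB -1.49, CSF1R -2.95, GP9 -4.04 and TLR10 -4.07. For the leading genes of the comparison they were BHLHE40 6.32, SLC16A6 5.74, CYTL1 5.72, PLA2G4C 5.24, POU4F1 5.22, PLK2 3.60, FABP5 -1.89, NRARP -1.95, SKP2 -1.97, SNX22 -2.30 and ZNF341 -2.81.

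Calls were lost on leaving out a single library for CYTL1 (3.91 without RS4;11 control replicate 3), POU4F1 (0.64 without RS4;11 control replicate 2), GDF15 (2.32 without RS4;11 control replicate 3), TP53INP1 (1.03 without RS4;11 control replicate 1), SPIB (-1.01 without TOM-1 control replicate 1), ATF4 (-0.24 without the same library), SLC7A1 and GATA3 (0.30 and 0.80 without TOM-1 control replicate 2). For POU4F1, IGLL1, PIM1, ABL1 and GP9 more than 1 library decided the call. POU4F1 was 5.22 without treated RS4;11 replicate 1, where its call was lost too. GP9 was 0.28 without TOM-1 control replicate 1, and IGLL1 was 0.26 without RS4;11 control replicate 2. SLC16A6 stayed called and was 10.68 without TOM-1 control replicate 1. Where a group had no reads, as for GP9 in treated TOM-1, POU4F1 in treated RS4;11 and IFI44 in TOM-1 control culture, the fitted value is no bound on the size of the change.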

How the results depend on the processing

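Between the treated lines the counts of called genes stayed within 1.5 times of the main count under every alternative run. Leaving out each treated library in turn gave 10789 to 11167 called genes, 5394 to 5554 higher and 5395 to 5613 lower in TOM-1, and 5795 to 5929 with at least a 2-fold difference. Calls higher in TOM-1 were 47.6% of all calls with upper-quartile scaling and 50.8% in the main comparison, and no scaling moved the median of all genes by more than 0.072. The count of genes whose line difference depended on ADI-PEG20 was 4644 to 5690 (2360 to 2939 higher, 2284 to 2751 lower) with 1 of the 11 libraries left out. It was 2072 (1022 higher, 1050 lower) with all 12 libraries, against 5567 (2876 and 2691).

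The replicate number as a block gave 10975 called genes between the treated lines and 5719 for the change of the line difference. Deviations of same-numbered treated libraries correlated at 0.022, 0.024 and 0.035, and those of differently numbered ones at -0.026 to 0.002. Each library thus correlated best with its own number, though weakly. The labels name no day or batch shared by a number, and such sharing was not tested. With the block the ASS1 change was called (adjusted p = 0.0240).

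For the named genes, 14 of the alternative values of the log2 difference lost the call and 3 gained it (EBF1), none with a change of direction. Lost in the fit on all 12 libraries were ATF4, PAX5, IGLL1, EIF4EBP1, NDUFA13, NDUFS4, ELOVL5, POLA1, E2F1 and XPC. IGLL1 was lost also with the size factors of DESeq2 (0.16), with upper-quartile scaling (0.13) and without RS4;11 replicate 1 or 3. Of the values for the change of the line difference, 64 lost and 31 gained a call, and 3 reversed: IGLL1 (-0.18) and EIF4EBP1 (-0.18) with all 12 libraries, and GP9, which ran from -4.82 to 0.28 over the fits with 1 library left out. The median of the amino acid sensing list turned to -0.053 with the length trend taken out (0.17 in the main comparison). The interferon median was 0.27 with a mean of 10 counts. The cause was not tested.

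Low counts limit the genes near 0 in a line, such as ASS1 in TOM-1 or MME in RS4;11: their fitted log2 differences depend on few reads.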
